A study of Mus musculus with 6 samples.

Results

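A set of 10 genes was selected by symbol for their known roles in the binding, shortening and decay of messenger RNA tails and caps, and its members were followed in every library of the table, which has 25239 genes. The poly(A) binding proteins are Pabpc1, Pabpc1l and Pabpc4, the PAN2-PAN3 deadenylase is encoded by Pan2 and Pan3, the decapping machinery is represented by Dcp1a, Dcp2 and Edc4, and Zfp36l1 and Zfp36l2 encode proteins that bind AU-rich elements (AREs). Counts were obtained from 6 libraries of mouse germinal vesicle (GV) oocytes, which are arrested in prophase of meiosis with an intact nucleus. All oocytes came from females of CD-1, an outbred strain, aged 4 to 6 weeks. Per the labels' protocols, oocytes with their surrounding cumulus cells were microinjected with water (3 libraries) or with a mixture of phthalate metabolites (3 libraries), and both groups were then cultured in maturation medium with 10% fetal bovine serum, 200 mIU/mL follicle-stimulating hormone and 50 µg/mL sodium pyruvate. Phthalates are plasticizers. The labels used here give neither the members of the mixture nor the dose or the time in culture. Libraries were made with Smart-seq3, which primes cDNA synthesis on the poly(A) tail, so RNA amount and the accessibility of the poly(A) tail cannot be told apart in the counts.

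A growing oocyte stores messenger RNA and then stops transcription, so that maturation and the first cleavage run on stored transcripts whose fate is set by tail length and translation. Cytoplasmic poly(A) binding proteins coat the tail and support translation. Deadenylases shorten the tail, decapping enzymes remove the cap from shortened transcripts, and exonucleases then degrade the body. ARE-binding proteins of the ZFP36 family recruit deadenylases to transcripts that carry short AU-rich motifs in their 3′ UTRs.

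A library held 252267 to 300917 gene counts in total. The libraries are called oocytes 1, 2 and 3 of a group after their titles, but the extraction protocol does not settle whether a group was 1 oocyte or 3, and if it was 1 the spread between the libraries of a group would be technical. No animal or culture is named under either reading, so a group counts as 1 sample and no difference has a test. All 12 oocyte markers had counts in the table, 11 of them in every library, and together they held 1.88% to 2.29% of the counts of a library. Of 20 cumulus and granulosa markers, 12 were at 0 in every library, among them Amh, Foxl2, Star and Gja1. The list summed to 13 to 39 counts per library in the water group and to 10 to 20 in the phthalate group. Nr5a2 gave most of these counts in every library, 9 to 32 in the water group and 8 to 16 in the phthalate group. Values are given as CPM (counts divided by the library's gene total and scaled to 1000000). Ratios are phthalate over water, from counts summed over the 3 libraries of a group and totals scaled by TMM. Their 95% exact interval covers counting error only. Calls of overlap between the groups for single genes used TMM-scaled CPM, whereas printed CPM are unscaled.

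The 10 genes spanned the range from no count to the upper few percent of detected genes. Per kilobase of annotated exons, Dcp1a had the highest level, with a mean of 139 CPM per kb over the 6 libraries and a range from 122 to 171. Pabpc1l followed with a mean of 94.4 CPM per kb (66.9 to 126), and its range overlapped that of Dcp1a by a narrow margin. Pabpc4, at 51.2 CPM per kb (37.4 to 64.8), and Edc4, at 50.0 CPM per kb (40.5 to 56.1), could not be told apart, and both lay below every value of Pabpc1l. Pan2 had a mean level of 12.0 CPM per kb (6.87 to 18.8), below the lowest value of Edc4. Dcp2 had 6.66 CPM per kb (5.02 to 8.18), Pabpc1 had 5.12 (0 to 10.2) and Pan3 had 2.66 (0.973 to 4.51). Each of these neighbours overlapped the next in its range over libraries. Zfp36l2 had 1.74 CPM per kb (0 to 6.31) and Zfp36l1 had no count in any library. Among 12543 detected genes with an annotated length, the level per kilobase of Dcp1a stood at percentile 96.8, that of Pabpc1l at 95.4, those of Pabpc4 and Edc4 at 91.6 and 91.4, and that of Pabpc1 at 56.0. With the length of the principal transcript in place of the exon union, the first 5 genes kept their order and Dcp2 moved from the sixth place to the eighth, below Pabpc1 and Pan3. On that length the ranges of Dcp1a and Pabpc1l did not overlap and those of Pabpc1l and Pabpc4 did. With the median length of coding transcripts, which for Pabpc1 is 780 bases, Pabpc1 followed Pabpc4 at 42.9 CPM per kb (0 to 85.6) and overlapped it (49.6 to 85.9).

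**Figure D1:**
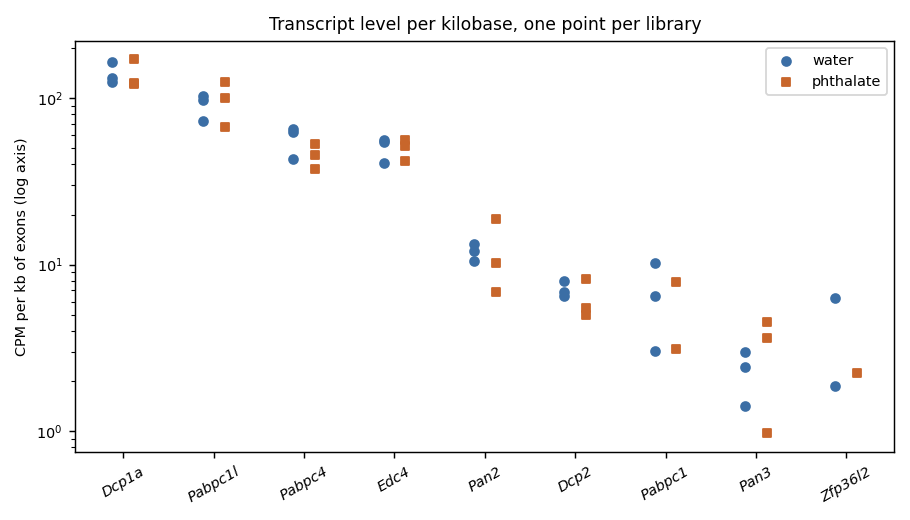
Transcript level in CPM per kilobase of annotated exons (log axis) for 9 genes in order of their mean, 1 point per library, circles for water and squares for phthalate; libraries with a count of 0 (1 for Pabpc1, 3 for Zfp36l2) are not drawn, and Zfp36l1, at 0 throughout, is left out. Dcp1a, Pabpc1l, Pabpc4 and Edc4 lie above 37 CPM per kb in every library and the other genes below 19.

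Among the 3 cytoplasmic poly(A) binding genes of the set, the oocyte paralog Pabpc1l had the highest level. Pabpc1l (chr2:164025450-164050538) encodes the embryonic poly(A) binding protein ePAB, which is needed for the translation of stored transcripts in oocyte maturation. Its CPM was 282, 199 and 264 for oocytes 1, 2 and 3 after water injection and 182, 342 and 273 for oocytes 1, 2 and 3 after phthalate injection. The phthalate group held both the lowest and the highest library, and the groups overlapped. The log2 ratio was 0.15 (interval -0.13 to 0.42), from 211 and 222 counts. It was -0.066 without phthalate oocyte 2 and 0.36 without phthalate oocyte 1. Pabpc1l took 52.7% to 72.1% of the level per kilobase of Pabpc1, Pabpc1l and Pabpc4 together, and it exceeded Pabpc4 in all 6 libraries, by 1.17-fold to 2.77-fold. On principal transcripts its part was 48.3% to 68.2%, and it exceeded Pabpc4 by 1.01-fold to 2.40-fold.

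Pabpc4 (chr4:123262351-123298925) encodes the inducible poly(A) binding protein first described in activated T cells. Its CPM was 174, 253 and 261 after water and 151, 183 and 215 after phthalate. A pair of water libraries stood above all phthalate libraries, and water oocyte 1 lay within the phthalate range. The log2 ratio was -0.31 (-0.63 to 0.0017), from 197 and 151 counts.

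Pabpc1 (chr15:36595661-36609668), the poly(A) binding protein of most somatic cells, was sparse. It had 18, 6 and 12 counts after water (66.8, 19.9 and 42.3 CPM) and 13, 6 and 0 after phthalate (51.5, 20.3 and 0 CPM). A count of 0 in phthalate oocyte 3 allows up to 10.9 CPM at a limit of 3 counts. Its log2 ratio was -0.85 (-1.73 to -0.0097), from 36 and 19 counts, and the groups overlapped. Of the 8 genes that passed the count filter it was the only one at or past 1.5-fold, the fold used here for a call, and 15.1% of all 4644 genes that passed were at or past it. By direction, 8.14% of all genes were at or past it toward water and 6.96% toward phthalate. The call rested on single libraries. The log2 ratio was -0.31 without phthalate oocyte 3 and -0.41 without water oocyte 1, both under 1.5-fold, whereas without phthalate oocyte 1 it was -1.97. On counts halved to read pairs the interval widened to -2.05 to 0.42. Processed copies of Pabpc1 exist in the genome, and how reads shared with them were counted is not given in the sources used here, so its count is uncertain.

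None of the 8 genes separated the 3 water from the 3 phthalate libraries in TMM-scaled CPM, a separation found for 10.1% of all 4644 genes.

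**Figure D2:**
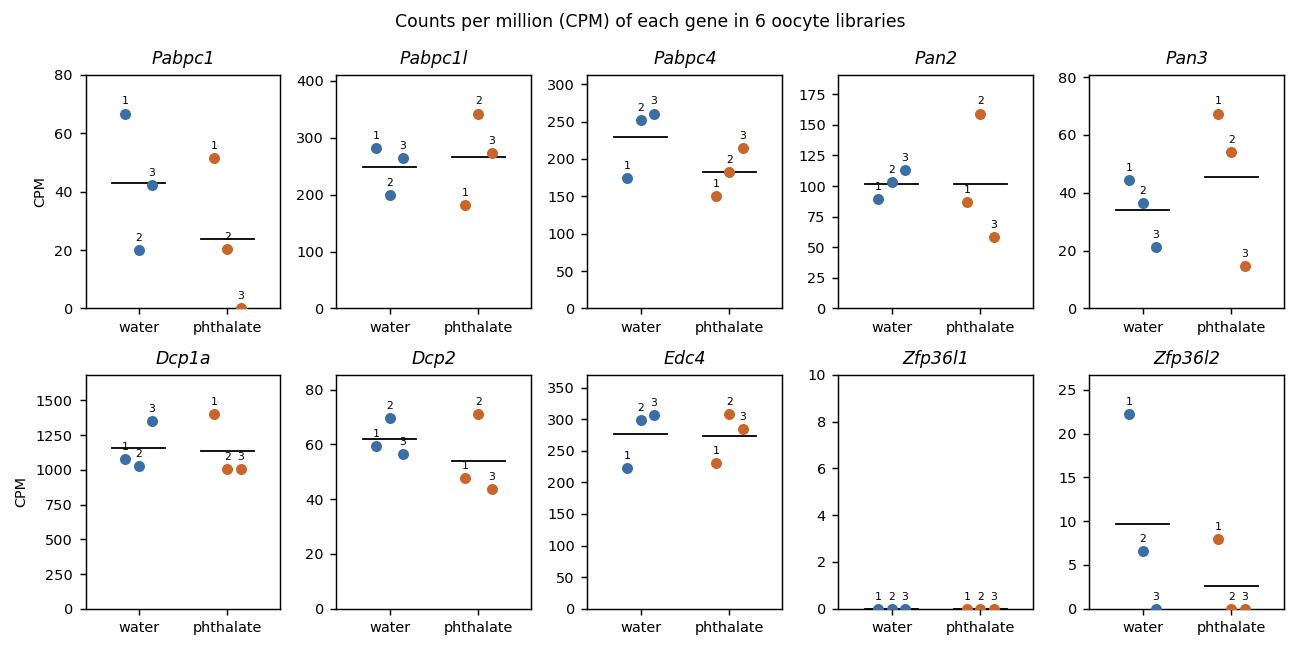
CPM of each of the 10 genes in the 3 water and 3 phthalate libraries, with the number of the oocyte above its point and the mean of the group as a bar; each panel has its own axis from 0. The groups overlap in every panel with counts, and Zfp36l1 is at 0 in all 6 libraries.

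The related cytoplasmic genes Pabpc2, Pabpc4l, Pabpc5 and Pabpc6 had no count in any library. Of the nuclear poly(A) binding proteins, the oocyte paralog Pabpn1l had a mean of 801 CPM per kb against 49.0 for Pabpn1, and it was higher in 6 of 6 libraries, as Pabpc1l was over Pabpc1. The means differed 16.4-fold for the nuclear pair and 18.4-fold for the cytoplasmic pair on exon unions, 5.77-fold and 9.19-fold on principal transcripts, and 5.19-fold and 2.55-fold on the median coding transcript. Another pair of this list, Paip2b and Paip2, had an order that changed with the length, with Paip2b higher in 3 of 6 libraries on exon unions, in 1 on principal transcripts and in 0 on the median coding transcript. These pairs were compared after their values were seen. In the list of 14 poly(A) binding genes and their partners 8 passed the filter, of which 6 were higher and 2 lower in phthalate, with 1 at or past 1.5-fold. The median log2 ratio was 0.19 against 0.0089 over all genes tested. It ranged from 0.10 to 0.21 with 1 library left out, and its spread between libraries was 0.13. Among genes of this list averaging 20 counts or more per library, Pabpn1 had the highest log2 ratio, 0.48 (0.11 to 0.86), with CPM of 134, 113 and 127 after water and 226, 180 and 113 after phthalate. In CPM without TMM scaling, phthalate oocyte 3 lay just under the lowest water library and phthalate oocytes 1 and 2 above the highest. Paip2b, which encodes an inhibitor of poly(A) binding protein, had the lowest, -0.57 (-0.83 to -0.31). Its CPM was 334, 469 and 324 against 297, 247 and 215, so every phthalate library lay below every water library. Of the 8 genes that passed, 0 lay wholly higher and 1 wholly lower in phthalate, where 10.1% of all 4644 genes did not overlap.

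The PAN2-PAN3 complex makes the first, slow cuts into long tails. PAN2 is the nuclease and PAN3 the adaptor that ties it to poly(A) binding protein. Pan2 (chr10:128303335-128321358) had 89.1, 103 and 113 CPM after water and 87.2, 159 and 58.2 CPM after phthalate. The water libraries lay close together, within the wider span of the phthalate libraries. Its log2 ratio was 0.039 (-0.41 to 0.49), from 87 and 85 counts, and without phthalate oocyte 2, the highest library, it was -0.46.

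Pan3 (chr5:147430161-147548502) had 44.5, 36.6 and 21.1 CPM after water and 67.4, 54.2 and 14.5 CPM after phthalate. A pair of phthalate libraries stood above all water libraries and phthalate oocyte 3, with 4 counts, below them. The log2 ratio was 0.42 (-0.32 to 1.18), from 29 and 37 counts. It was 0.80 without phthalate oocyte 3 and 0.63 without water oocyte 1, both past 1.5-fold, and 0.081 without phthalate oocyte 1 and 0.18 without water oocyte 3. In CPM the highest library exceeded the lowest by 4.63-fold in Pan3 and by 2.74-fold in Pan2, where genes with a mean count within 2-fold of theirs had medians of 2.90-fold and 2.24-fold. In CPM, phthalate oocyte 3 was the lowest of the 6 libraries for Pan2, Pan3, Pabpc1 and Dcp2, and phthalate oocyte 1 for Pabpc1l and Pabpc4.

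The second deadenylase, CCR4-NOT, removes the rest of the tail. Of 14 listed genes of the complex and its adaptors in the table, 12 passed the filter, 6 higher and 6 lower in phthalate, with 1 at or past 1.5-fold in each direction and a median log2 ratio of -0.0062. Tob2, which encodes an adaptor between poly(A) binding protein and the complex, had the highest ratio among those averaging 20 counts or more, 0.69 (0.34 to 1.03). Its CPM was 160, 89.7 and 173 after water and 222, 203 and 240 after phthalate, with no overlap. Among the same genes Cnot11, a subunit of the complex, had the lowest ratio, -0.42 (-0.80 to -0.058). Its CPM was 152, 193 and 183 against 147, 115 and 131, also with no overlap. Of the 12 genes 2 lay wholly higher and 1 wholly lower in phthalate, where 10.1% of all 4644 genes did not overlap. Cnot9, averaging under 20 counts, had a lower ratio, -0.69 (-1.30 to -0.094), and its groups overlapped.

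Decapping transcripts were dominated by the activators. Dcp1a (chr14:30479535-30527063) encodes the coactivator that binds the decapping enzyme DCP2. It had 1080, 1030 and 1353 CPM after water and 1403, 1003 and 1008 CPM after phthalate. In each group 1 library stood above the other two, and the group means were 1154 and 1138 CPM. With 985 and 927 counts its log2 ratio was the most precise of the 10, at -0.015 (-0.15 to 0.12), and the 5% and 95% limits of 207 genes of similar count were -0.30 and 0.36. Leaving out 1 library moved it from -0.16, without phthalate oocyte 1, to 0.12, without water oocyte 3.

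Dcp2, on chromosome 18, encodes the enzyme that cuts the cap. It had 59.4, 69.8 and 56.4 CPM after water and 47.6, 71.2 and 43.6 CPM after phthalate. Phthalate oocyte 2 was the highest library and the other two phthalate oocytes the lowest. The log2 ratio was -0.16 (-0.77 to 0.44), from 53 and 45 counts. It was -0.41 without phthalate oocyte 2 and -0.050 without water oocyte 2. For so few counts the libraries lay close together: the highest exceeded the lowest by 1.63-fold in CPM, and 6.31% of 2900 genes of similar count had a smaller span.

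Edc4 (chr8:105880881-105894908) encodes the scaffold that joins DCP1 and DCP2. It had 223, 299 and 307 CPM after water and 230, 308 and 284 CPM after phthalate. In each group the other two libraries stood above oocyte 1. The log2 ratio was 0.010 (-0.26 to 0.28), from 237 and 227 counts, and the highest library exceeded the lowest by 1.39-fold in CPM. Nrn1l overlaps exons of Edc4 on the same strand and had 52 counts over all libraries, so a share of reads could be assigned to either.

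Within a library the level per kilobase of Dcp1a exceeded that of Dcp2 by 14.9-fold to 31.2-fold, and that of Edc4 exceeded Dcp2 by 5.94-fold to 10.3-fold. On principal transcripts the ranges were 21.8-fold to 45.6-fold and 6.96-fold to 12.1-fold. The enzyme was thus the least abundant of the 3 transcripts in 6 of 6 libraries under both lengths. The paralog Dcp1b had 0, 1 and 1 counts after water and 0, 0 and 4 after phthalate, and Edc3, another enhancer of decapping, had 2 counts in water oocyte 1 and none elsewhere. Of 20 other decapping and 5′ to 3′ decay genes 10 passed the filter, 5 higher and 5 lower in phthalate, 1 past 1.5-fold each way, with a median log2 ratio of -0.013. Lsm2, a subunit of the LSM ring, had the highest ratio of those averaging 20 counts or more, 0.74 (0.20 to 1.29). Its CPM was 59.4, 73.1 and 35.2 after water and 115, 88.1 and 76.4 after phthalate, with no overlap. Of the 10 genes that passed, 1 lay wholly higher and 0 wholly lower in phthalate, where 10.1% of all 4644 genes did not overlap. Among the same genes the lowest was that of Lsm14a, a translational repressor of P-bodies, at -0.42 (-0.81 to -0.038). Its CPM was 156, 140 and 190 against 159, 84.7 and 120, and the groups overlapped. The paralog Lsm14b had a mean of 383 CPM per kb of annotated exons against 23.1 for Lsm14a. The log2 ratio of Lsm14b was 0.20 (0.069 to 0.34), from 882 and 965 counts, and its groups overlapped.

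**Figure D3:**
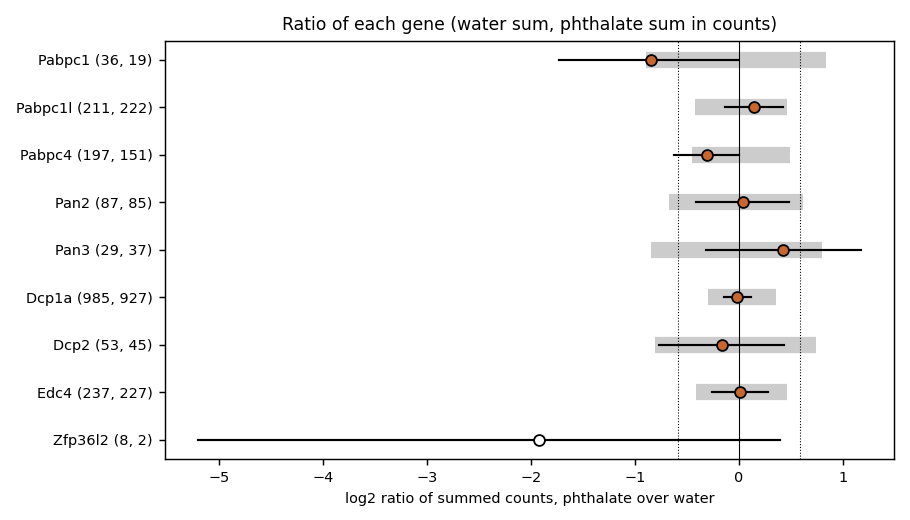
Log2 ratio of phthalate over water for the 9 genes with a count, with the 95% exact counting interval as a line, the summed counts of water and phthalate beside each name, and dotted lines at 1.5-fold; grey bars span 5% to 95% of the genes with a mean count within 2-fold, and the open point did not pass the count filter. Pabpc1 alone of the filled points lies past a dotted line, and its ratio stays within the grey bar.

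Transcripts of the ARE-binding ZFP36 proteins were scarce. ZFP36L2 binds AREs and is needed for oocyte maturation and for female fertility in mice. Zfp36l2 (chr17:84183931-84187947) had 6, 2 and 0 counts after water and 2, 0 and 0 after phthalate, and did not pass the filter. Its CPM was 22.3, 6.65 and 0 against 7.93, 0 and 0. The ratio from 8 and 2 counts, -1.93 on the log2 scale, had an interval from -5.20 to 0.40, so no difference was detectable at this depth. Water oocyte 1 held most of the counts, and without it both groups had 2 counts, too few for a ratio. That library also had the most cumulus and granulosa marker counts, 39, of which 32 were from Nr5a2. In every other library, too, Nr5a2 gave most of these counts. The part of cumulus and granulosa cells in the Zfp36l2 counts was not tested. Zfp36l1 (chr12:80107754-80113013), the close paralog, had 0 counts in all 6 libraries, which allows up to 9.97 to 11.9 CPM in a single library and 1.79 CPM over all 1676410 counts. Zfp36 had 2 counts, both in phthalate oocyte 2, and Zfp36l3 none. The annotation places antisense transcripts over exons of Zfp36l1 and Zfp36l2, and the use of strand is not given in the sources used here.

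The transcripts of Zfp36l1 and Zfp36l2 themselves carry the core of the motif that ZFP36 proteins bind. The 7-base core of the ARE, TATTTAT in DNA letters, was searched on the transcript strand of the 3′ UTR of 1 principal GENCODE transcript per gene (GRCm38, which is mm10), with overlapping matches counted. Zfp36l1 and Zfp36l2 had 3 matches each, Dcp2 had 2, and Dcp1a and Pan3 had 1. The poly(A) binding genes, Pan2 and Edc4 had none in 3′ UTRs of 332 to 588 bases, where 8.41% to 16.2% of genes of similar UTR length have a match. Among genes with 3′ UTRs near the lengths of Zfp36l1 and Zfp36l2 (1835 and 1822 bases), 39.4% and 39.1% have at least 1 match, and 26.7% of all 20020 genes with a 3′ UTR do. Near the longer 3′ UTRs of Dcp2, Dcp1a and Pan3 the share is 80.4%, 60.1% and 43.9%. A match is a description of letters and not a bound site. One window for Dcp1a and Pan3 and the first and second for the ZFP36 genes are shown 5′ to 3′ with the motif in capitals, to show the sequence around it. They lie in the 3′ UTR at chr14:30524318-30524346 (plus strand), chr5:147547930-147547958 (plus strand), chr12:80108422-80108450 and chr12:80108381-80108409 (minus strand), and chr17:84184914-84184942 and chr17:84184866-84184894 (minus strand), in the order printed.
Dcp1a: gccatggtttcTATTTATgcttttatggc
Pan3: gctttgttttaTATTTATttttcatttca
Zfp36l1, first: ttatcaaaacgTATTTATtgccaaactat
Zfp36l1, second: aattttgttcaTATTTATcgggatgacaa
Zfp36l2, first: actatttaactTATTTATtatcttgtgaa
Zfp36l2, second: tgtccatactgTATTTATcgagtatgatg

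Genes that carry the motif were set beside those that do not. Of 5350 genes with TATTTAT in the 3′ UTR 1249 passed the filter, 585 higher and 664 lower in phthalate, with a median log2 ratio of -0.027, and 15.29% were at or past 1.5-fold. Of genes without it 3278 passed, 1731 higher and 1547 lower, with a median of 0.023, and 15.04% were at or past 1.5-fold. The spread between libraries of the median of genes with the motif was 0.032, larger in size than that median. The sets were not matched for 3′ UTR length, with which the share of genes with a match rises. No difference between them was tested.

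Of 13 other listed ARE-binding genes, 2 (Zfp36l3 and Mex3d) had no count in any library and 5 passed the filter, 3 higher and 2 lower in phthalate, with 0 at or past 1.5-fold and a median log2 ratio of 0.072, which ranged from -0.091 to 0.32 with 1 library left out. Elavl2, an ARE-binding protein of oocytes and neurons, had the highest ratio, 0.47 (0.042 to 0.90), with CPM of 96.5, 79.8 and 113 after water and 178, 139 and 80.0 after phthalate. Its mean level per kilobase was 12.4 times that of Elavl1, the widely expressed paralog, on exon unions. The fold was 14.9 on principal transcripts and 15.2 on the median coding transcript. Elavl1 had only 10 counts after water and 9 after phthalate and did not pass the filter, so the fold is imprecise. Khsrp, a destabilizing ARE-binding protein, had the lowest ratio, -0.56 (-1.11 to -0.024), with 111, 89.7 and 67.0 CPM against 63.4, 71.2 and 43.6. Both pairs of groups overlapped. In the exosome and uridylation list, 10 of 18 genes in the table passed, 6 higher and 4 lower, with 0 past 1.5-fold. The median was 0.12, and it was -0.011 without water oocyte 3.

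**Figure D4:**
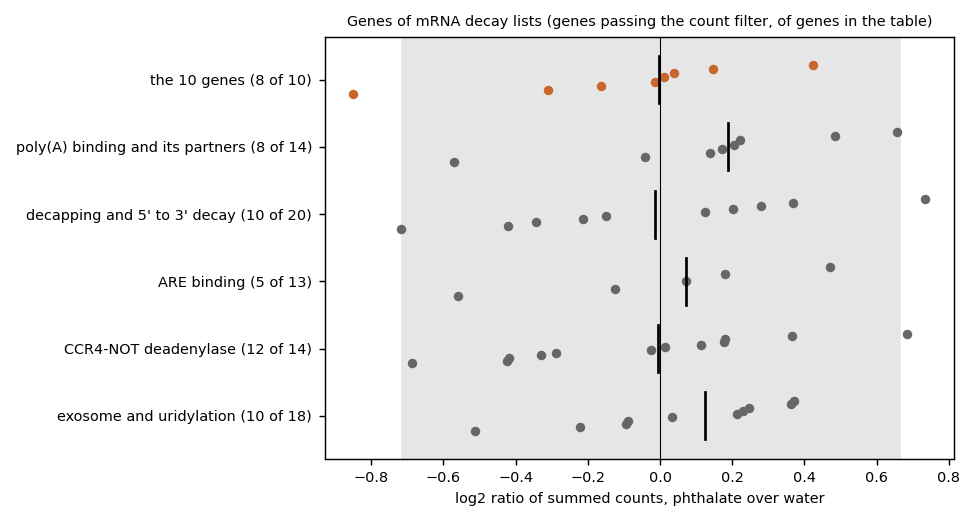
Log2 ratios of phthalate over water for genes of the mRNA decay lists that passed the count filter (their number and the number in the table beside each name), with the list's median as a vertical bar and 5% to 95% of all 4644 genes shaded. Medians lie between -0.013 and 0.19, and points of each list fall on both sides of 0.

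Over the 10 genes together the counts made up 0.202% to 0.242% of a water library and 0.190% to 0.223% of a phthalate library, and the ranges overlapped. Of the 8 genes that passed the filter 4 were higher and 4 lower in phthalate, with a median log2 ratio of -0.0027. Dcp1a, the member with the most counts, varied over the 6 libraries most like 4931428L18Rik, Canx and Mtus1, with root-mean-square differences of centred log2 CPM of 0.050, 0.069 and 0.071 among 2783 genes with a median of 0.37. This likeness over 6 libraries, which share depth and amplification, is a description only.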

How the data were processed

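The table deposited by the authors holds raw counts, 1 row per symbol, with 25239 genes and 92 ERCC spike-ins. Sequencing was on a MiSeq in 150 bp pairs, per the labels' protocols. The submitters' processing notes name cutadapt, Trimmomatic, HISAT2, DESeq2 and mm10. The counting tool, annotation and use of strand are not given in the sources used here. From 68.0% to 71.1% of counts from 1 to 20 in a library were even, so both mates may be counted and intervals may be too narrow. ERCC rows were left out.

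Genes were filtered with edgeR 4.0.16 filterByExpr (minimum count 10, minimum total 15; 4644 genes) and totals scaled by TMM. Ratios used summed counts, with a sum of 0 set to 3 counts. Intervals are Clopper-Pearson at 95%. No test was run, since the labels name no animal or culture. The ratio code was tested on simulated data. Lengths, positions and UTRs came from GENCODE M21. All members are described; from each other list the highest and lowest ratio among genes averaging 20 counts or more per library are named. Members and lists were chosen with earlier results of these data known.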

Additional observations from a re-analysis of the deposited data

How the results depend on the processing

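Of 89 values of the member ratios under alternatives (plain totals, DESeq2 size factors, Rn45s left out, libraries weighted alike, each library left out), 85 stayed within the counting interval, and 11 had the other sign, all of ratios under 1.5-fold. Leaving out 1 library gave log2 ratios from -0.16 to 0.12 for Dcp1a, from -1.97 to -0.31 for Pabpc1 and from -0.46 to 0.28 for Pan2. The number of members at or past 1.5-fold was 1 in every one of these settings, Pan3 in place of Pabpc1 without water oocyte 1 or phthalate oocyte 3, and with all libraries it was 0 at 2-fold. The number whose groups do not overlap ranged from 0 to 2 of 8 with 1 library left out, where 18.2% to 24.5% of all 4644 genes do not overlap. The genes were Pabpc4 without water oocyte 1, Pabpc1 and Pabpc1l without phthalate oocyte 1, Pan2 and Dcp2 without phthalate oocyte 2, and Pan3 without phthalate oocyte 3. The call used TMM-scaled CPM. In unscaled CPM the groups of Pabpc1 and Pabpc1l still overlap without phthalate oocyte 1. Of 77 list medians, 71 moved by less than the spread between libraries and 13 had the other sign. Leaving out 1 library gave a median from -0.011 to 0.18 for exosome and uridylation. Without the filter, over genes above 3 counts in at least 1 group, it was 0.053 for that list (16 genes) and 0.12 for decapping and 5′ to 3′ decay (17 genes). The ratio of Zfp36l2 without water oocyte 1 was not computed, since both groups were then under 3 counts. In the order of levels 6 genes changed place with the median length of coding transcripts and 3 with the principal transcript, the latter chosen after the data were seen. No paired analysis was possible because no test was run and the numbers name no shared animal or day. The cause of these moves was not tested. At this depth, genes under about 20 counts per library, here Pabpc1, Pan3, Dcp2 and Zfp36l2, have the widest intervals.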
